A study of Danio rerio and Xiphophorus maculatus with 12 samples.

Results

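The comparison described here set ventricles of adult zebrafish collected 7 days after cryoinjury against ventricles of uninjured adult zebrafish. Its members were chosen by library label: 3 cryoinjured and 3 uninjured zebrafish libraries, which are 6 of the 12 libraries of the study. The other 6 libraries came from platyfish and were not used. In cryoinjury a cold probe freezes a stretch of the ventricle and its cells die. All fish carry the label wild type (WT), and no strain or exact age is given. Each library was made from 8 pooled ventricles, so that 24 fish stood behind each group and the pool was the replicate (n = 3 pools per group). The atrium and the bulbus arteriosus, the outflow vessel of the fish heart, had been cut away before pooling. Uninjured fish had undergone no procedure at all, so the effects of opening the body and of freezing cannot be told apart. Injured and spared wall of a ventricle went into the same tube, and the injured share of each ventricle is not given.

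The zebrafish ventricle is known to regrow muscle after such a wound. Dead tissue is cleared by neutrophils and macrophages, fibroblasts and epicardial cells lay down a matrix of collagens and fibronectins that is later removed, and spared cardiomyocytes near the wound take apart their sarcomeres and divide. Signals between these cells include growth factors and chemokines from the epicardium, endocardium and fibroblasts.

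Total counts per library lay between 20735097 and 27994535, and mitochondrially encoded genes took 28.9% to 37.3% of them. Cryoinjured pools 2 and 3 stood apart from the rest in the genes they detected (1 count or more), 16530 and 15976, against 18102 to 18819 in the other 4 libraries. Cryoinjured pool 1 correlated at 0.957 to 0.962 with the uninjured pools across genes (Pearson, log2 CPM, where CPM are counts scaled to a common library total) and at 0.941 and 0.945 with the other cryoinjured pools. The part of these differences in the results was not tested, and the calls are therefore followed through 6 refits that left out 1 library each. The labelled tissue was checked by the myosin light chain gene myl7 (ENSDARG00000019096), a marker of heart muscle, whose lowest value in any pool was 461054 normalised counts. Normalised counts are raw counts corrected for each library's total and TMM factor, at a depth common to the 6 libraries. The values of a group are given below in the order of pools 1, 2 and 3.

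Of 32520 genes in the table, 13470 had enough counts to be tested. The filter asked for enough counts in at least 3 libraries, whichever group they belonged to. A gene near 0 in 1 group could thus pass through the other alone, as hbegfb and plvapa did through the cryoinjured pools. For such genes the direction of the change was fixed by the filter, also where they count in the lists below. The increases included matrix genes such as postnb, fn1b and col12a1a, and the decreases included 11 nuclear-encoded respiratory chain genes, 4 sarcomere genes and 3 tubulin genes. With edgeR's quasi-likelihood test and a Benjamini-Hochberg adjusted p under 0.05, 91 genes were higher (0.676% of those tested) and 41 were lower (0.304%), 132 in all (0.98%). A further measure was the number of genes whose groups did not overlap: all cryoinjured pools lay above all uninjured pools in 1453 genes (10.8%) and below them in 1469 (10.9%). The 132 called genes were all among these. At an unadjusted p under 0.05, 1120 of the 13470 genes were higher and 963 lower. Counts of list members at that threshold below are to be read against these numbers. The increases were of larger size than the decreases: 81 of the 91 higher genes and 5 of the 41 lower genes differed by at least 2-fold, and the median log2 fold change was 1.70 among the higher and -0.73 among the lower genes. The higher genes had a median level of 144 normalised counts in uninjured ventricles, near the median of 122 over all genes tested, and the lower genes had a median of 3800.

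The calls depended on which libraries were kept. Each refit had 1 pool fewer, which by itself lowers the power of a test. The refits without cryoinjured pool 1 and without uninjured pool 2 nevertheless called more higher genes than the full fit. The part of the smaller number of pools in the lost calls was not tested. Without cryoinjured pool 1 the numbers of higher and lower genes were 165 and 123, and without cryoinjured pool 2 they were 27 and 2. Leaving out cryoinjured pool 3 gave 36 and 5, uninjured pool 1 gave 40 and 4, uninjured pool 2 gave 94 and 37, and uninjured pool 3 gave 30 and 1. Cryoinjured pool 1 was the lowest of the cryoinjured pools in 77 of the 91 higher genes. In all 6 refits 23 higher genes and 0 lower genes kept their call. The lower genes also leaned on scaling: with counts scaled to the library total alone, which moved the median of all genes from -0.018 to 0.158 on the log2 scale, 224 genes were higher and 5 lower. The share of calls that were increases was then 97.8%, against 68.9%. A fit that blocked on replicate number had 65 lower genes.

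**Figure D1:**
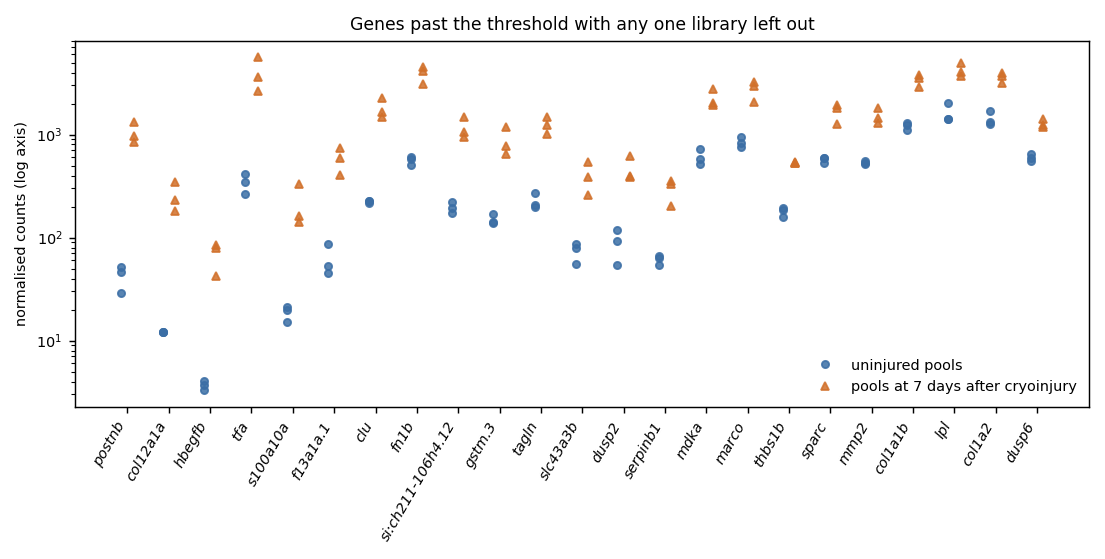
Normalised counts (log axis) of the 23 genes that stayed past the threshold with any 1 library left out, ordered by log2 fold change. Circles are the 3 uninjured pools and triangles the 3 pools at 7 days after cryoinjury. Every triangle of a gene lies above its circles, and the gap narrows from postnb on the left to dusp6 on the right.

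Several extracellular matrix genes rose and none fell past the threshold. The table held 54 collagen genes, of which 22 were tested and 3 were higher (13.6%), with 0 lower and a median log2 fold change of 0.61, against -0.018 over all genes tested. Among 60 matrix glycoproteins and proteoglycans 8 were higher and 0 lower (13.3%, median 0.26), and among 63 matrix enzymes and inhibitors 7 were higher and 0 lower (11.1%, median 0.15).

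The gene postnb encodes periostin, a matricellular protein of wound fibroblasts. It had 28.7, 51.7 and 46.6 normalised counts in uninjured pools and 841, 960.3 and 1320.4 in cryoinjured pools. The groups lay far apart, with a 24.7-fold rise (log2 fold change 4.62 ± 0.26 SE, adjusted p 4.31e-05). The collagen gene col12a1a, whose product binds to the surface of collagen fibrils, had 12, 12.1 and 12.2 against 181, 229 and 343 normalised counts. Its uninjured values were nearly equal, and it rose 20.5-fold (adjusted p 0.000253). The chains of fibrillar type I collagen, the main load-bearing collagen of scars, rose less. For col1a1b the values were 1225, 1118 and 1297 against 2878, 3557 and 3765, a 2.80-fold rise, and for col1a2 the rise was 2.52-fold. All 4 of these genes kept their call in each of the 6 refits. The near-copy col1a1a had lower counts, 19.5, 29.7 and 27.4 against 65.7, 76.1 and 72.3. Its log2 fold change of 1.48 ± 0.36 SE had an adjusted p of 0.0861.

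Adhesion proteins of the provisional matrix followed. The fibronectin gene fn1b had 504, 603 and 577 normalised counts in uninjured pools and 3082, 4129.6 and 4533 in cryoinjured pools, a 6.97-fold rise (adjusted p 4.31e-05). Its paralog fn1a had 7.41, 22 and 12.2 against 98.6, 108 and 72.3, a 6.72-fold rise. Both fibronectins thus rose by a similar factor, fn1b with calls in 6 of 6 refits and fn1a in 2 of 6 (adjusted p up to 0.129; lost without uninjured pools 1 and 3 and cryoinjured pools 2 and 3). The collagen-binding glycoprotein gene sparc rose 2.93-fold (569.8 ± 40.4 to 1672 ± 363 normalised counts, mean ± SD). The thrombospondins, which bind matrix and platelets and take part in activating TGF-beta, rose as a pair: thbs1b had 159, 187 and 195 against 530.2, 545 and 532, a 2.97-fold rise, and thbs1a rose 2.42-fold. The cryoinjured values of thbs1b had an SD of 8.12. Microfibril genes mfap2 (6.41-fold) and mfap5 (2.67-fold) completed the called matrix glycoproteins. The calls of sparc and thbs1b held in 6 of 6 refits, those of mfap2 in 3, mfap5 in 2 and thbs1a in 1, with adjusted p values of up to 0.176. Without uninjured pools 1 or 3 or cryoinjured pool 2 the list kept 4 calls, and without cryoinjured pool 3 it kept 5.

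Several enzymes that cross-link or cut the matrix rose. The transglutaminase gene f13a1a.1, coding for a coagulation factor XIII subunit that cross-links fibrin and fibronectin, had 87.1, 45.1 and 52.7 against 404, 592 and 740.1 normalised counts, a 9.32-fold rise (adjusted p 0.00129). Tissue transglutaminase tgm2b rose 2.68-fold, and the lysyl oxidase gene loxl2b, whose product cross-links collagen, rose 4.41-fold. The gelatinase gene mmp2 had 514, 525 and 554 against 1298, 1455 and 1815, a 2.87-fold rise (adjusted p 0.00136). The remaining calls were adam8a (5.95-fold), a membrane protease of leukocytes in mammals, serpinh1b (2.37-fold), the collagen chaperone of the endoplasmic reticulum, and htra1b (2.11-fold), a secreted serine protease. In this group f13a1a.1 and mmp2 held in 6 of 6 refits, tgm2b in 5, loxl2b in 3, serpinh1b and htra1b in 2 and adam8a in 1, with adjusted p values of up to 0.193. The list had 4, 3, 2 and 4 higher genes without uninjured pools 1 and 3 and cryoinjured pools 2 and 3. No integrin subunit was called among 16 tested with edgeR (median 0.15), but without cryoinjured pool 1 there were 3 lower and a median of -0.20, and without cryoinjured pool 3 the median was -0.12. At an unadjusted p under 0.05, 3 integrins were higher and 3 lower, and DESeq2 called 1 higher and 2 lower. The gene itgb1a, a fibronectin receptor subunit, had 756, 901 and 727 against 1043, 1162 and 1095 (log2 fold change 0.47 ± 0.13 SE, adjusted p 0.128). By the same naming rule, itga5 had means of 3503 against 3488 (log2 fold change -0.006, adjusted p 0.99) and itgb2 a log2 fold change of 0.62 (adjusted p 0.197).

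Secreted ligands were tested in 125 genes. Of these 4 were higher and 0 lower (3.2%), with a median log2 fold change of 0.28. All cryoinjured pools lay above the uninjured ones in 30 genes and below in 6, against 10.8% and 10.9% of all genes tested. The list had 2 higher genes without uninjured pools 1 or 3 or cryoinjured pools 2 or 3, 9 without uninjured pool 2, and 6 higher and 2 lower without cryoinjured pool 1. The largest called rise was that of hbegfb, a heparin-binding EGF-like growth factor that acts on ErbB receptors. It had 3.71, 3.30 and 4.05 normalised counts in uninjured pools and 79.0, 42.6 and 85.4 in cryoinjured pools. It was thus near the detection limit without injury, and rose 18.1-fold (log2 fold change 4.18 ± 0.52 SE, adjusted p 0.00606). Midkine, a heparin-binding growth factor encoded by mdka and known from epicardial cells after cardiac injury in zebrafish, had 730.0, 573 and 521 against 1920.2, 2015 and 2783, a 3.68-fold rise (adjusted p 0.00136). Both calls held in 6 of 6 refits, but with limma voom hbegfb had an adjusted p of 0.0723. The paralog hbegfa was not called, with a log2 fold change of 0.31.

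The chemokine gene cxcl12a, which guides cells that carry Cxcr4, had 51.0, 83.6 and 50.7 against 168, 342 and 384 normalised counts, a 4.83-fold rise (adjusted p 0.0177). Cryoinjured pool 1 was the lowest of its group, and the call held in 2 of 6 refits (adjusted p up to 0.119, lost without uninjured pools 1 and 3 and cryoinjured pools 2 and 3). The receptor gene cxcr4b rose 3.09-fold, from 332, 218 and 391 to 687, 1149 and 1078, and held in 3 of 6 refits (lost without uninjured pool 1 and cryoinjured pools 2 and 3). Ligand and receptor both lay above the uninjured pools in all 3 cryoinjured pools, as did every gene called higher. R-spondin 3, encoded by rspo3 and known to strengthen Wnt signalling, had 8.34, 15.4 and 8.10 against 59.5, 62.9 and 51.5. Its rise was 5.44-fold with an adjusted p of 0.0399, but the call was lost in each of the 6 refits (up to 0.186), with the replicate block (0.0533) and with limma voom (0.0648). Larger fitted changes of sema3d (5.86, adjusted p 0.0561) and csf1a (4.76, adjusted p 0.0643) rested on 1.47 or fewer mean normalised counts in uninjured pools and were not called. These names were chosen after their values were seen.

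Secreted antagonists and binding proteins had 3 higher and 0 lower genes among 17 tested (17.6%, median 0.44). All 3 are known to act on Wnt, BMP or TGF-beta signals. The gene frzb encodes a secreted Frizzled-related protein that binds Wnt ligands. It had 139.9, 175 and 139.8 against 301, 518 and 561 normalised counts, a 3.03-fold rise (adjusted p 0.0191). The BMP and Wnt antagonist gene sostdc1a rose 2.46-fold, from 92.3 ± 22.9 to 227 ± 34.2, and htra1b, already described as a protease, is in this list for its action on TGF-beta family signals in mammals. Each call held in 2 of 6 refits. The list had 1 higher gene without uninjured pool 1 and 0 without uninjured pool 3, cryoinjured pool 2 or cryoinjured pool 3.

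Of 157 signalling receptors 3 were higher and 0 lower (1.91%, against 0.98% of all genes tested), with a median of 0.07. Without overlap 30 lay above and 14 below, against 10.8% and 10.9% of all genes. At an unadjusted p under 0.05, 28 were higher and 10 lower, against 1120 and 963 of all 13470 genes tested. DESeq2 called 10 higher and 1 lower. Beside cxcr4b the genes called by edgeR were s1pr5a, a receptor for sphingosine 1-phosphate (316, 271 and 328 against 528, 766 and 693, 2.17-fold), and ghrb, a growth hormone receptor (2354, 2286 and 2036 against 3415, 3288 and 3317, 1.5-fold). The values of ghrb were tight within each group. Its adjusted p was 0.0452, and the call was lost in all 6 refits (up to 0.175) and with the replicate block (0.0504). The call of s1pr5a held in 1 refit, the one without cryoinjured pool 1. The list kept 0 calls without uninjured pool 1, cryoinjured pool 2 or cryoinjured pool 3.

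**Figure D2:**
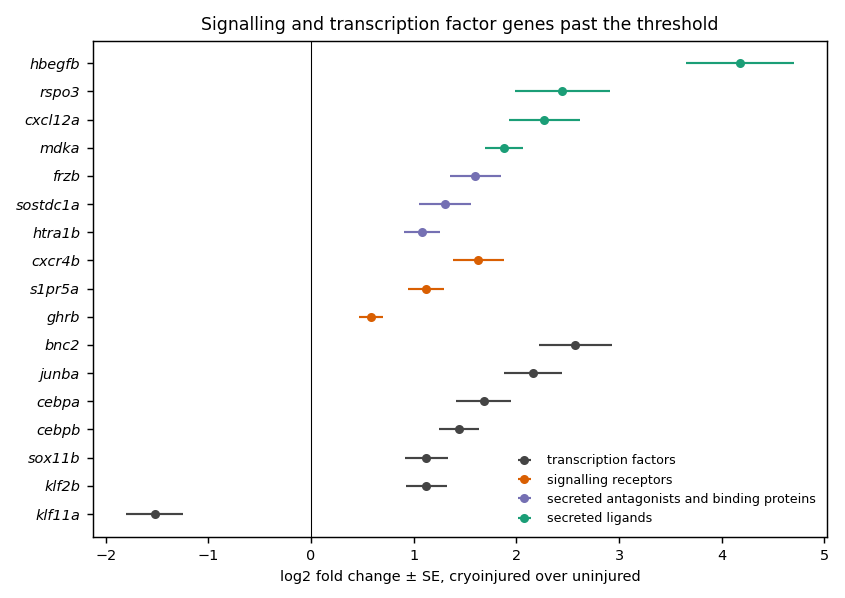
Log2 fold change with its standard error for every called secreted ligand, antagonist, receptor and transcription factor (n = 3 pools per group). Of the 17 points, klf11a at -1.52 is the only one left of 0, and hbegfb at 4.18 lies farthest to the right.

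Transcription factors were tested in 407 genes, of which 6 were higher and 1 lower (1.72%, against 0.98% of all genes tested), with a median of 0.05. Without overlap 65 lay above and 26 below, against 10.8% and 10.9% of all genes. DESeq2 called 19 higher and 2 lower. The largest rise called by edgeR was that of bnc2, a zinc finger factor and marker of the epicardium. It had 22.2, 20.9 and 22.3 against 84.4, 140.1 and 168 normalised counts (5.95-fold, adjusted p 0.0109). The AP-1 subunit gene junba had 206, 186 and 159 against 560.4, 1232 and 673, a 4.47-fold rise. Its spread in the injured group came mainly from pool 2. The C/EBP factors of myeloid and stress responses rose together: cebpb had 334, 325 and 287 against 692, 1128 and 748 (2.71-fold, adjusted p 0.0108), and cebpa had 173, 129.8 and 94.2 against 308, 475 and 493 (3.2-fold). Smaller rises were those of klf2b, a flow-responsive factor of endothelium (2.18-fold), and sox11b, a SoxC factor of developing tissues (2.18-fold). The only factor called lower by edgeR was klf11a, a Krüppel-like factor. It had 345, 337 and 467 against 114, 94.4 and 192, or 34.7% of the uninjured level (adjusted p 0.0331). The calls of junba and cebpb held in 5 of 6 refits (0.0553 without uninjured pool 3), those of bnc2 and cebpa in 2, and those of klf2b, sox11b and klf11a in 1 (adjusted p up to 0.174). With the replicate block sox11b stood at 0.0564. Without uninjured pool 3 the list had 0 calls.

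Immediate early and heat shock genes had 4 higher and 0 lower among 47 tested (8.51%, median 0.50). The dual-specificity phosphatase gene dusp2, a feedback inhibitor of MAP kinases, had 119.5, 92.4 and 53.7 against 388, 399 and 614, a 5.26-fold rise held in 6 of 6 refits. Its relative dusp6, which acts on ERK and is outside that list, had 586, 648 and 552 against 1171, 1239 and 1418, a 2.14-fold rise that also held in 6 of 6 refits (adjusted p 0.00574). The cytokine-signalling inhibitor socs3a had 4511, 2718 and 3356 against 6169, 10599 and 11172. The 2.64-fold rise of socs3a had an adjusted p of 0.0494, which stood at up to 0.179 in the refits, at 0.12 with the replicate block and at 0.0648 with limma voom, and it held only without cryoinjured pool 1. The other calls of this list were junba and serpinh1b. It had 1 higher gene without uninjured pool 3, 2 without uninjured pool 1 or cryoinjured pools 2 or 3, and 6 without cryoinjured pool 1. For fosab the 3 cryoinjured values were 100.4, 1093 and 90.9, so that its mean rested on pool 2 (adjusted p 0.313). No gene was called by edgeR among 30 TGF-beta targets (median 0.19, 8 higher and 1 lower at an unadjusted p under 0.05, 3 higher by DESeq2), though 1 was higher without uninjured pool 2 and 1 higher and 1 lower without cryoinjured pool 1. Among 30 Notch, Wnt and Hippo targets edgeR called 0 genes, and 0 in each of the 6 refits. Their median was 0.08, with 3 higher and 2 lower unadjusted and 1 higher by DESeq2.

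Cell-type markers were summed in CPM, scaled to the library total. On that scale 2756 genes lay above and 511 below without overlap. With the TMM factor in the library size, a scaling added after seeing the data, 2 of the 16 marker lists changed: lymphocyte sums overlapped and smooth muscle sums lay below. In bulk tissue a lower number of cells and less RNA per cell cannot be told apart, and the same holds for increases. Fibroblast markers showed the clearest separation. Of 25 markers listed, 21 were tested and all 21 had a fitted increase. Markers with few uninjured counts, tcf21 included, passed the filter only with the cryoinjured pools, so their increase is no separate evidence. Of these, 16 lay above without overlap, against 10.8% of all genes tested. The markers had 7 calls (33.3%, median 1.48). Their summed level was 407.6, 398.5 and 357 CPM in uninjured pools and 878.2, 921.5 and 1167 CPM in cryoinjured pools. Without postnb, fn1a and fn1b it was 387, 372 and 332 CPM against 688, 713 and 906 CPM, so the separation of the groups did not rest on those 3 genes. The 7 called markers were postnb, fn1b, fn1a, cxcl12a, col1a1b, mfap5 and col1a2, all of which are matrix or chemokine genes described above. Between 4 and 8 were called in the refits, with 4 without uninjured pools 1 or 3 or cryoinjured pools 2 or 3. The platelet-derived growth factor receptor gene pdgfra, a surface marker of fibroblasts, had 145, 207 and 122 against 87.0, 215 and 338, and the groups overlapped (adjusted p 0.681).

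**Figure D3:**
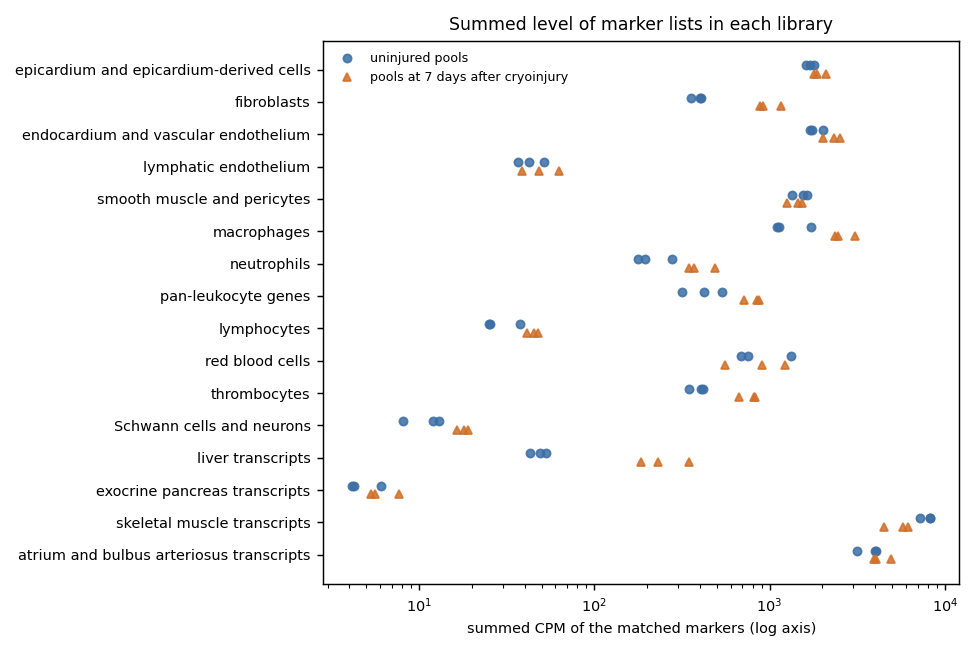
Summed CPM (log axis) of the markers of each cell type or other tissue in each pool. Circles are uninjured pools and triangles cryoinjured pools. The sums of fibroblast, macrophage, neutrophil, pan-leukocyte, lymphocyte, thrombocyte, Schwann cell and liver genes are higher without overlap on this scale (the lymphocyte sums overlap with the TMM factor). The neutrophil sum is mostly srgn, whose groups overlap in normalised counts. Those of skeletal muscle genes, mostly eno3, are lower without overlap. The sums of red blood cells and lymphatic endothelium overlap.

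Epicardial markers gave a mixed picture. Of 15 tested 2 were higher, clu and bnc2, and 0 lower (13.3%, median 0.36), with clu alone left without uninjured pools 1 or 3 or cryoinjured pools 2 or 3. The sum was 1609, 1798 and 1705 CPM against 1791, 1854 and 2095 CPM, so that the groups overlapped. The secreted chaperone gene clu had 224, 224 and 217 against 1495, 1638 and 2258 normalised counts, an 8.10-fold rise that held in 6 of 6 refits (adjusted p 4.31e-05). The transcription factor tcf21, a defining gene of epicardium and of the fibroblasts derived from it, had 5.56, 13.2 and 2.03 against 16.9, 50.8 and 16.4. All cryoinjured values were higher, but on few counts (adjusted p 0.263). The markers with the highest counts, krt94 and podxl, had log2 fold changes of -0.14 and 0.15. The Wilms tumour factor wt1b, an activation marker of epicardium, had raw counts of 3, 3 and 2 against 22, 10 and 24. It was too low to be tested, as was the retinoic acid synthesis gene aldh1a2 with 8, 3 and 8 against 7, 14 and 13 counts.

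Endothelial and endocardial markers had 2 higher and 0 lower among 35 tested (5.71%, median 0.25). The diaphragm protein gene plvapa, which marks fenestrated and remodelling endothelium, had 3.71, 6.60 and 6.08 against 44.4, 53.8 and 56.9, a 9.34-fold rise held in 2 of 6 refits (adjusted p up to 0.0928, lost without uninjured pools 1 and 3 and cryoinjured pools 2 and 3) and at 0.0655 with limma voom. The other was klf2b, and the list had 0 calls without any 1 of those 4 pools and 3 without cryoinjured pool 1. Pan-endothelial genes were less different: kdrl had 3483, 3319.8 and 3696 against 4228, 4072 and 4894 (log2 fold change 0.33 ± 0.12 SE, adjusted p 0.227), and cdh5 had a log2 fold change of 0.34 (adjusted p 0.261). Neither passed the test, although the groups of both did not overlap. The endothelial growth factor vegfaa had 871, 1356 and 979.6 against 1345, 945 and 1148 (adjusted p 0.837). The 6 lymphatic markers tested had 0 calls by edgeR and DESeq2, with 2 higher at an unadjusted p under 0.05. Of 18 smooth muscle and pericyte markers only tagln was called. This actin-binding gene of smooth muscle and activated fibroblasts had 272, 196 and 205 against 1237, 1479 and 1023, a 5.55-fold rise held in 6 of 6 refits (adjusted p 0.000253). The markers with the highest counts in that list, myl9a and myl9b, had log2 fold changes of -0.43 and -0.39 and were not called.

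Some macrophage markers rose. Of 45 markers listed, 30 were tested and 4 were higher (13.3%, median 0.86). Without overlap 13 lay above and 0 below, against 10.8% and 10.9% of all genes tested. The summed level was 1126, 1733 and 1107 CPM against 2457, 2352 and 3077 CPM. The scavenger receptor gene marco, a surface receptor of resident macrophages, had 836, 949 and 749.7 against 3205, 2073 and 2972 normalised counts, a 3.26-fold rise held in 6 of 6 refits (adjusted p 0.00197). The apolipoprotein E gene apoeb, known from lipid-handling macrophages, had 12, 19.8 and 5.07 against 93.3, 274 and 575. Its cryoinjured values spread widely, and the 25.5-fold rise had an adjusted p of 0.0448 that held only without cryoinjured pool 1 (up to 0.222) and was 0.32 with limma voom. The mannose receptor gene mrc1b rose 2.15-fold and held in 1 refit. The invariant chain gene cd74a of antigen presentation had 13172, 17667 and 12551 against 21573, 25759 and 29809, a 1.78-fold rise held in 2 of 6 refits (adjusted p 0.0399). Without the abundant cd74a and cd74b the summed macrophage level was 290, 520 and 324 CPM against 686, 614 and 856 CPM. The list had 1 call without uninjured pools 1 or 3 or cryoinjured pools 2 or 3, 5 without uninjured pool 2, and 7 without cryoinjured pool 1. The pan-macrophage gene mpeg1.1 had 7, 6 and 1 against 11, 7 and 18 counts and was too low to be tested.

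Other leukocyte lists were higher in level with few calls. Neutrophil markers had 0 called among 19 by edgeR (9 higher and 0 lower at an unadjusted p under 0.05, 5 higher by DESeq2) and a median of 0.85. Their sum was 194.1, 275.8 and 176.6 CPM against 349, 368.8 and 489.4 CPM. That sum was mostly 1 gene, srgn, with 3796, 4848 and 3488 against 4522, 6139.5 and 7999 normalised counts. The groups of srgn overlapped (adjusted p 0.199), so the sum is no measure of neutrophils. The myeloperoxidase gene mpx had 31.5, 95.7 and 14.2 against 87.0, 67.0 and 99.6, and the NADPH oxidase subunit gene ncf1 had 203, 286 and 139 against 330.4, 519.7 and 482 (adjusted p 0.0934). Uninjured pool 2 had the highest uninjured value in both genes, and without it 4 neutrophil markers were called. Pan-leukocyte genes had 1 call, cxcr4b, among 26 (median 0.76). This list had 15 above and 0 below without overlap, against 10.8% and 10.9% of all genes tested. It had 0 calls without uninjured pool 1 or cryoinjured pools 2 or 3, and 3 without uninjured pool 2 or cryoinjured pool 1. Their sum was 425, 535.6 and 314.7 CPM against 716, 871.3 and 845.1 CPM. Lymphocyte markers had 0 calls among 16 by edgeR and DESeq2, with 6 higher at an unadjusted p under 0.05 and a sum of 25.16 to 37.82 CPM against 41.46 to 47.89 CPM. With the TMM factor the sums overlapped, at 26.3 to 40.5 against 39.1 to 44.8 CPM. Among 32 lymphocyte genes listed, 7 (lck and cd4-1 included) had at most 3 counts over all 6 libraries.

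Thrombocyte markers had 4 higher and 0 lower among 15 tested (26.7%, median 0.80), with a sum of 346.9, 417.3 and 407.6 CPM against 820.9, 665.6 and 813.1 CPM. The calls were fn1b, thbs1b, thbs1a and fgl2a (1.83-fold, held in 2 of 6 refits), and the first 3 are matrix genes that fibroblasts and other cells also express. Without those 3 the sum was 317, 381 and 370 CPM against 635, 462 and 575 CPM. Most of that remainder was 2 genes, so it is no separate measure of thrombocytes. They were apln, also in the endothelial list (means of 4153 against 4426 normalised counts, log2 fold change 0.09), and fgl2a (2710 against 4946). The list kept 2 calls without uninjured pools 1 or 3 or cryoinjured pools 2 or 3. Red blood cell markers had 0 calls among 18 by edgeR and DESeq2 (1 higher at an unadjusted p under 0.05). Their sum ran from 557.7 to 1220 CPM in cryoinjured and from 685.8 to 1329 CPM in uninjured pools, so that the groups overlapped, and the median log2 fold change of 0.09 ran from -0.16 without uninjured pool 2 to 0.65 without uninjured pool 3, with 2 lower without cryoinjured pool 1.

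Some complement genes rose. Of 26 complement and coagulation genes tested 13 lay above and 3 below without overlap, against 10.8% and 10.9% of all genes. Called genes were 3 higher and 0 lower (11.5%, median 0.44). Beside clu, a regulator of the membrane attack complex, these were c6, a component of that complex (40.8, 85.8 and 68.9 against 167, 297 and 386, 4.36-fold), and cfp, properdin, which stabilises the alternative pathway (532, 631 and 301 against 1079, 1090.2 and 1205, 2.31-fold). The calls of c6 and cfp held in 2 and 1 of 6 refits, and c6 stood at 0.0525 with limma voom. The list had 6 higher and 1 lower with the replicate block, 6 higher without uninjured pool 2 and 1 higher without uninjured pools 1 or 3 or cryoinjured pools 2 or 3. Lysosomal genes had 1 higher and 0 lower among 76 (1.32%, against 0.98% of all genes tested, median 0.20). Without overlap 23 lay above and 0 below, against 10.8% and 10.9% of all genes. The call was the cathepsin gene ctsz, 281, 285 and 279 against 438, 564 and 477 (1.75-fold, adjusted p 0.0481, 0.057 with the replicate block, 0.053 with limma voom), held only without cryoinjured pool 1. Interferon response and antigen presentation genes had 1 call, cd74a, among 59 (1.69%, against 0.98% of all genes tested, median 0.10). Their median was -0.04 without uninjured pool 3, and the list had 0 calls without uninjured pools 1 or 3 or cryoinjured pools 2 or 3 and 2 without uninjured pool 2.

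Annexins, which bind calcium and membranes, and S100 proteins had 4 higher and 0 lower among 19 tested (21.1%, median 0.48). The gene s100a10a had 21.3, 19.8 and 15.2 against 141, 162 and 332, an 11.2-fold rise held in 6 of 6 refits (adjusted p 0.00357). Its known binding partner annexin A2, encoded by anxa2a, had 4509, 4505 and 4611 against 6259.7, 7557 and 9167. That rise was 1.69-fold (adjusted p 0.0374, held in 1 refit), so the pair rose by different factors. The anti-inflammatory annexin gene anxa1a rose 2.55-fold, from 1668, 1592 and 1766 to 3150.3, 4310.2 and 5332, and held in 5 of 6 refits (0.0729 without cryoinjured pool 2). The fourth call, anxa5b, rose 2.79-fold and held in 2, and stood at 0.061 with limma voom. The list had 1 to 3 calls in the other refits and 6 without cryoinjured pool 1. Among intermediate filaments vim (vimentin, of mesenchymal cells) rose 2.70-fold and krt18b, a keratin, 2.58-fold, 2 of 13 tested. They held in 1 and 2 of 6 refits, and krt18b stood at 0.0564 with the replicate block. That list had 0 higher without uninjured pools 2 or 3 or cryoinjured pools 2 or 3, and 1 lower without uninjured pool 2.

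Transport genes added a few of the largest changes. Transferrin, encoded by tfa and known as the plasma iron carrier made by liver, had 347, 409 and 264 normalised counts in uninjured pools and 2641, 3630.1 and 5609.9 in cryoinjured pools. It rose 11.6-fold and held in 6 of 6 refits (adjusted p 0.00136). It was the only call among 27 iron and haem genes (3.70%). Liver transcripts were checked as a possible admixture: of 42 listed, 7 were tested. At 0 in every library were 12, apoa1a, fgg, serpina1 and ttr included, and 16 had at most 3 counts over all 6 libraries. The rest, rbp4 included, had more counts. Of the 7 tested, tfa included, 6 had a fitted increase (median log2 fold change 1.06), and DESeq2 called 3 higher. The summed liver level without tfa was 29.6, 37.6 and 38.4 CPM against 60.6, 84.9 and 99.8 CPM, and its part in the result for tfa was not tested. Exocrine pancreas transcripts summed to 4.15 to 6.04 CPM against 5.31 to 7.69 CPM, with 18 of 32 at 0 in every library. Among 8 skeletal muscle transcripts tested edgeR called 0 and DESeq2 2 lower, with 3 lower at an unadjusted p under 0.05 and 14 of 35 at 0 in every library. Their summed level was mostly eno3, with mean normalised counts of 176842 in uninjured and 112758 in cryoinjured pools. Next came nme2b.2 (24467 against 10043.5) and ckma (1608 against 1145). Of 12 atrium and bulbus transcripts tagln was the only call, and their sum was 3174, 3985 and 4066 CPM against 3951, 4072 and 4903 CPM. That sum was mostly nppa, with means of 93791 against 95926.5 normalised counts. Each of these sums thus mainly followed 1 gene and is no measure of its tissue. Schwann cell and neuron genes had 0 of 5 called by edgeR or DESeq2, with 3 higher at an unadjusted p under 0.05. The retinol-binding gene rbp5 had 13, 12.1 and 8.10 against 56, 102 and 111, a 7.98-fold rise held in 2 of 6 refits (adjusted p 0.0129), the only call among 21 retinoid genes (4.76%). With limma voom rbp5 stood at 0.0636 and that list had 0 calls, as it did without uninjured pools 1 or 3 or cryoinjured pools 2 or 3, and it had 2 without cryoinjured pool 1 or with the replicate block. The plasma retinol carrier gene rbp4 had 586, 724 and 819 against 987, 1661 and 1863 and missed the threshold (adjusted p 0.0643). Lipoprotein lipase, encoded by lpl, which frees fatty acids from plasma lipids, had 2002, 1426 and 1412 against 4935, 3727 and 4013, a 2.62-fold rise held in 6 of 6 refits.

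A few heart muscle genes fell, by small factors. Of 60 sarcomere genes tested 4 were lower and 0 higher (6.67%, median -0.26). Without overlap 15 lay below and 4 above, against 10.9% and 10.8% of all genes. The regulatory light chain gene myl7 had 648944, 611899 and 601199 normalised counts in uninjured pools against 461054, 476700.0 and 472381, or 75.7% of the uninjured level (adjusted p 0.0321). The essential light chain gene cmlc1 stood at 69.7%. The actin genes actc1a (ENSDARG00000042535; 123290.0, 116930.0 and 149848 against 81092, 71558 and 61737) and acta1b stood at 55.0% and 51.8%. These actins are near-copies of each other and of further actin genes, so that reads may have been split between them. The call of actc1a held in 3 of 6 refits and those of the others in 1, with adjusted p values of up to 0.199. The list had 1, 3, 0, 9, 0 and 0 lower genes without uninjured pools 1, 2 and 3 and cryoinjured pools 1, 2 and 3. When counts were scaled to the library total alone it had 0 lower genes and a median of -0.08. In CPM, on that scale, 6 genes of the list lay below and 6 above without overlap. With the replicate block myl7 stood at 0.0656 and cmlc1 at 0.0755.

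Genes of the stressed or fetal heart had 2 higher, tagln and junba, and 0 lower among 21 tested (9.52%, against 0.98% of all genes tested, median 0.03). Both are shared with lists above, tagln with smooth muscle and junba with immediate early genes, so neither call is particular to heart muscle. DESeq2 called 3 higher and 2 lower. The list had 3 higher and 1 lower without uninjured pool 2, and 3 higher without cryoinjured pool 3. It had 1 higher without uninjured pool 3 and 2 higher in each of the other refits. With the replicate block it had 2 higher and 1 lower. The natriuretic peptide gene nppa, a stress hormone of heart muscle, had 79911, 100713 and 100750.0 against 80797, 98806 and 108177 (log2 fold change 0.03 ± 0.13 SE, adjusted p 0.936). The values for nppb were 5326, 14276 and 18329 against 13116, 15501 and 19506 (adjusted p 0.772), with the low value of uninjured pool 1 setting the spread. The cardiac transcription factor gata4 had 138, 125 and 134 against 163, 103 and 136 (log2 fold change 0.01 ± 0.25 SE, adjusted p 0.985). For tbx20 the values were 327, 239.8 and 411 against 368, 178 and 187, with cryoinjured pool 1 within the uninjured range (adjusted p 0.562). Calcium handling and conduction genes had 0 calls among 35 by edgeR (2 higher and 8 lower at an unadjusted p under 0.05; 1 higher and 5 lower by DESeq2; 1 lower with the replicate block; 1 higher and 5 lower without cryoinjured pool 1). Their median of -0.13 became 0.05 under scaling to the library total. The calcium pump gene atp2a2a of the sarcoplasmic reticulum had 73648, 65300.3 and 66071 against 56395, 47916 and 45999 (log2 fold change -0.45 ± 0.10 SE, adjusted p 0.0749).

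Genes of oxidative energy supply held the largest number of decreases. Of 93 nuclear-encoded respiratory chain and ATP synthase genes listed, 86 were tested. Of these 11 were lower and 0 higher (12.8%, median -0.46), 80 had a fitted decrease, and 67 lay below without overlap, against 10.9% of all genes. Calls fell in every complex: 5 of 34 complex I genes were lower, 1 of 5 in complex II, 3 of 9 in complex III, 1 of 20 in complex IV and 1 of 17 in the ATP synthase, with medians of -0.52, -0.50, -0.65, -0.34 and -0.42. The complex IV subunit gene cox5aa had 16405, 14079 and 16854 against 9992, 8888 and 9059.7, or 59.0% of the uninjured level (adjusted p 0.0125). In complex III, uqcr10, uqcrfs1 and cyc1 stood at 59.8%, 61.7% and 61.7%. In complex I, ndufa10, ndufs6, ndufb2 and ndufb7 stood between 60.9% and 66.6%, and ndufs8a had a log2 fold change of -0.51. The complex II subunit gene sdhb stood at 62.9%, and atp5mc1, a membrane ring subunit of the ATP synthase, stood at 63.9%, from 12493, 11277 and 13746 to 7989, 7979 and 8022. The cryoinjured values of atp5mc1 had an SD of 22.4.

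The size of these decreases depended little on the refit, but the calls did. The median of the list lay between -0.42 and -0.54 in the 6 refits, whereas it had 0, 14, 0, 13, 0 and 1 lower genes without uninjured pools 1, 2 and 3 and cryoinjured pools 1, 2 and 3. Scaling to the library total alone gave a median of -0.29 and 0 calls, and DESeq2 called 34 lower. In CPM, scaled to the library total, 22 of the 86 genes lay below without overlap and 1 above. Among all 13470 genes tested 511 lay below and 2756 above on that scale. With the replicate block ndufs8a and sdhb stood at 0.0623 and 0.0535. The 13 tested genes of the mitochondrial genome, which encode further subunits of the same complexes, all had a fitted decrease (median -0.33), but 0 were called by edgeR or DESeq2 and 7 were lower at an unadjusted p under 0.05. Their summed level overlapped between groups, from 288100 to 326500 CPM in uninjured and from 270400 to 346800 CPM in cryoinjured pools.

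**Figure D4:**
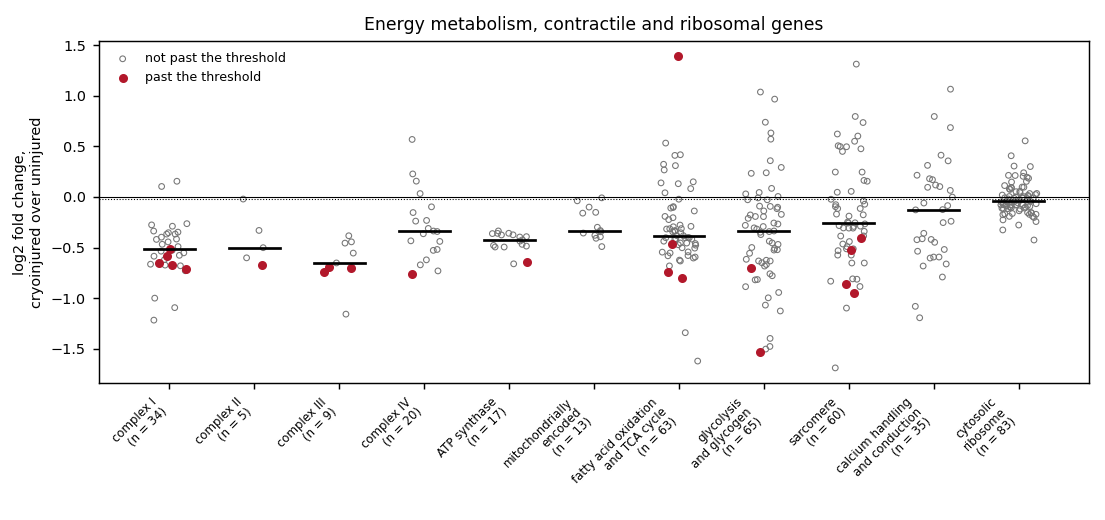
Log2 fold change of each tested gene of the respiratory complexes, energy metabolism, sarcomere, calcium handling and cytosolic ribosome lists. Each point is 1 gene, filled red where past the threshold. Short bars are medians, the solid line is 0 and the dotted line is the median of all genes tested (-0.018). The medians of the respiratory complexes lie between -0.34 and -0.65, and that of ribosomal proteins is -0.04.

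Some genes of the fuel pathways that feed the respiratory chain fell too. Among 63 fatty acid oxidation and TCA cycle genes 34 lay below and 1 above without overlap, against 10.9% and 10.8% of all genes. Of the 63 genes 3 were called lower and 1, lpl, higher (6.35%, median -0.38). Among the lower genes were the TCA cycle enzyme genes FH (fumarate hydratase, 59.9% of the uninjured level; a second gene, fh, had a log2 fold change of -0.34 and an adjusted p of 0.217) and idh2 (isocitrate dehydrogenase, 72.5%). Among 65 glycolysis and glycogen genes 2 were lower and 0 higher (3.08%, median -0.34), whereas DESeq2 called 9 lower and 3 higher and scaling to the library total gave 1 lower and 3 higher. Both act on glycogen: the debranching enzyme gene aglb had 591, 931 and 995 against 312, 254 and 305, or 34.6% (adjusted p 0.00956), and pgm1, a phosphoglucomutase, stood at 61.4%. In the creatine system ckmt2a, the mitochondrial creatine kinase of muscle, had 708, 802 and 1035 against 408, 405 and 289, or 43.3% (1 of 9 tested). The calls of aglb held in 4 of 6 refits, ckmt2a in 3, pgm1 in 2, and FH and idh2 in 1. Under scaling to the library total aglb and ckmt2a kept their calls, with adjusted p values of 0.0218 and 0.0391, and the medians of the 3 lists were -0.20, -0.15 and -0.36. In CPM, on that scale, 13 fatty acid and TCA genes lay below and 3 above without overlap. The glycolysis list had 4 lower genes with the replicate block, 3 lower and 1 higher without cryoinjured pool 1, 1 lower without uninjured pools 1 or 3, and 0 lower without cryoinjured pools 2 or 3. The fatty acid and TCA list had 1, 2, 0, 5, 0 and 0 lower without uninjured pools 1, 2 and 3 and cryoinjured pools 1, 2 and 3. The creatine call was lost without uninjured pool 3 or cryoinjured pools 2 or 3.

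Alpha-tubulin genes, which encode microtubule subunits, gave 3 lower of 14 tubulins tested (21.4%, median -0.12). The gene tuba1b had 3629.7, 2188 and 3098 against 1574, 1168 and 1041, or 42.4% of the uninjured level, tuba1c stood at 45.1% and tuba8l2 at 56.7%. The groups were well apart in each. All 3 calls held in 2 of 6 refits, those without uninjured pool 2 or cryoinjured pool 1. Tubulin genes share long identical stretches, so reads may have been split between copies, and the median of the list was 0.05 when counts were scaled to the library total.

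Cell division and protein synthesis genes gave no calls. With edgeR and DESeq2, 0 of 45 DNA replication genes (median 0.13) and 0 of 49 mitosis and cytokinesis genes (median 0.50) were called. At an unadjusted p under 0.05, 3 and 6 were higher, against 1120 of all 13470 genes tested. Without uninjured pool 2 the medians were 0.25 and 0.80, and without uninjured pool 3 they were -0.01 and 0.29. The replication clamp gene pcna had 389, 510.4 and 361 against 441, 599.9 and 535 (log2 fold change 0.32 ± 0.18 SE, adjusted p 0.439). The division marker mki67 had 64.8, 111 and 51.7 against 65.7, 214 and 132 (0.86 ± 0.44 SE, adjusted p 0.387). In both genes the groups overlapped, with the highest uninjured value in pool 2 and the lowest cryoinjured value in pool 1. In the mitosis list 44 of 49 genes had a fitted increase and 7 lay above without overlap, and in the replication list 3 of 45 lay above, against 10.8% of all genes. With cryoinjured pool 1 as the only injured library the median of the mitosis list was -0.09. Cytosolic ribosomal proteins had 0 calls among 83 by edgeR and DESeq2 (1 higher and 2 lower at an unadjusted p under 0.05) and a median of -0.04, or 0.13 when scaled to the library total. Endoplasmic reticulum folding genes had 0 of 83 by edgeR, 3 higher and 1 lower by DESeq2, and 5 in each direction unadjusted. Circadian clock genes had 0 of 31 by edgeR, 1 higher by DESeq2, and 1 in each direction unadjusted.

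**Figure D5:**
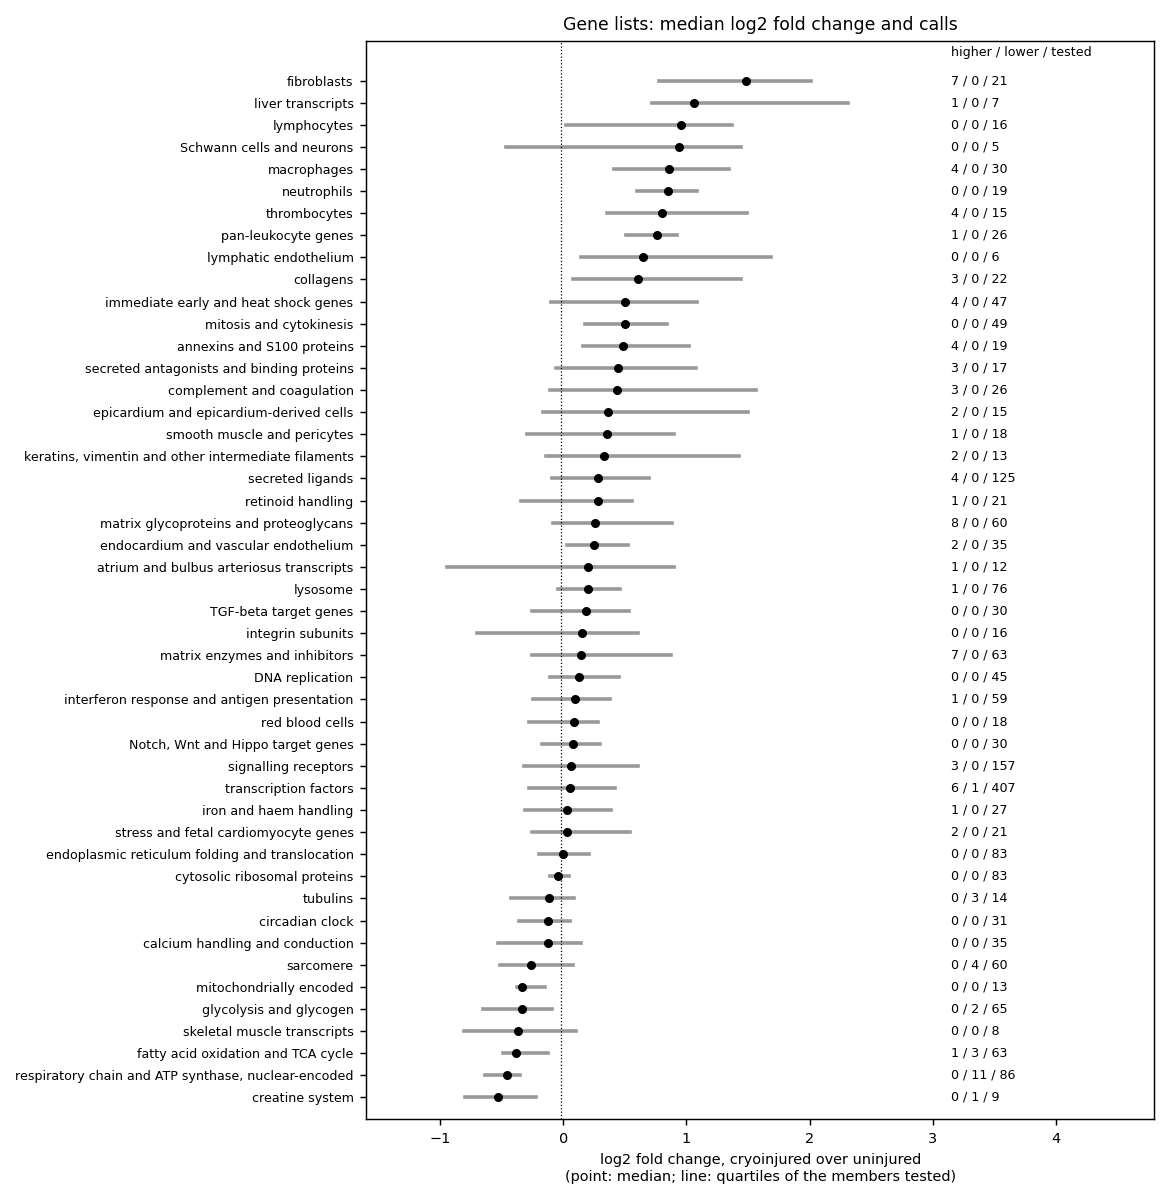
Median log2 fold change (point) and quartiles (line) of the tested members of each gene list with at least 5 tested, with the numbers called higher, called lower and tested at the right. The dotted line is the median of all genes tested. Fibroblast markers lie highest at 1.48, and the creatine system and the respiratory chain lie lowest at -0.53 and -0.46.

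Some signals known from heart regeneration in zebrafish were too low to be tested or did not pass. The cardiomyocyte mitogen gene nrg1 had raw counts of 1, 0 and 4 in uninjured pools and 5, 0 and 0 in cryoinjured pools. The interleukin gene il11a had 0, 4 and 1 against 11, 0 and 0 counts, so that cryoinjured pool 1 alone held reads in its group. Neither could be tested. The transcription factor stat3, which acts below interleukin receptors, had 267, 304 and 367 against 329.5, 134 and 218 (log2 fold change -0.46 ± 0.29 SE, adjusted p 0.499).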

How the data were processed

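Pooled ventricle RNA was made into stranded mRNA libraries and sequenced, per the labels' protocols. The submitters' processing notes name FastQC, HISAT2 2.2.1, featureCounts 2.0.1, DESeq2 1.38.3 and GRCz11; the strand setting and annotation release are not given in the sources used here. The authors deposited raw counts per gene, used here unchanged. They also deposited normalised counts (a signal equal to the raw count times 1 constant per library), log2 fold changes and adjusted p-values. The authors' deposited table gives an adjusted p for 11503 genes, with 323 higher and 204 lower at 0.05, including all 91 and 41 called here.

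Counts were fitted in R 4.3.3 with edgeR 4.0.16 (filterByExpr, TMM factors, robust glmQLFit, glmQLFTest, Benjamini-Hochberg adjustment over 13470 genes, threshold 0.05). The 15 alternatives include DESeq2 1.42.0 and limma voom 3.58.1. Tests on simulated counts (3 simulations, 200 genes changed by 1.5 on the log2 scale among 13470) recovered 78.5%, with 6.54% false calls and 0 in the wrong direction. Libraries of a group differed by 23.3 to 55.3 times counting noise (chi-square per degree of freedom), so none is a copy. Reads without molecular identifiers are not independent molecules. The p-values measure the spread between pools. The labels give the replicate number in a batch field. Deviations of same-numbered libraries from their group means correlated at 0.134, 0.14 and 0.0123. These values are low, but 4 of 6 libraries correlated best with their own number in the other group. The fit without the block is the main one, and the block called more genes (119 higher and 65 lower).

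The comparison, the 48 gene lists and the panel of named genes were chosen with earlier results of these data known, and 99 list symbols matched no gene. Symbols are the authors' own, and where theirs were missing they were taken from a reference list of gene names. The values of 1 called gene are not reported here. Named genes were taken from the called genes with the largest changes, no overlap and a mean of at least 100 normalised counts. Up to 4 called members per list and direction (otherwise the 3 with the highest counts) were added. So were every called ligand, antagonist, receptor and transcription factor, the markers with the highest counts, and the panel. Some called genes and several uncalled members that met these rules are not printed, so the names in the text are a selection. Figures were drawn with matplotlib 3.10.9.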

Additional observations from a re-analysis of the deposited data

How the results depend on the processing

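Numbers of higher and lower genes were 91 and 41 in the fit reported. Voom (84 and 50), DESeq2 size factors in edgeR (93 and 39), leaving out mitochondrially encoded genes (91 and 43) and a filter of 1 CPM in 3 libraries (97 and 41) stayed within 1.5 times of both. DESeq2 called 335 higher and 192 lower, the fit with no filter on low counts 270 and 247, and scaling to the library total alone 224 and 5. Leaving out 1 library gave 27 to 165 higher and 1 to 123 lower genes. With cryoinjured pool 1 as the only injured library, an alternative chosen after seeing the data in which the lone pool is assumed to vary like the uninjured ones, 11 genes were higher and 0 lower. Blocking on replicate number gave 119 higher and 65 lower genes. Of the 132 called genes 16 missed the threshold under that block, and 4 of 6 libraries correlated best with the library of their own number. The called genes had no overlap between groups, so leaving out 1 library could hardly reverse a sign. No named gene that was called had the opposite sign under any of these 15 alternatives. The causes of these differences were not tested. With limma voom 17 of the 132 called genes missed the threshold.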

Other observations

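Of the called genes, 36 higher and 16 lower belong to none of the 48 lists. They were named after their values were seen. Among the higher genes, glutathione transferase gstm.3 (170.5, 138 and 142 normalised counts in uninjured pools against 640.4, 778 and 1173, 5.75-fold), the transporter gene slc43a3b (5.35-fold), the leukocyte elastase inhibitor serpinb1 (4.76-fold) and the unnamed gene si:ch211-106h4.12 (5.91-fold) held in 6 of 6 refits. Also higher were scara3 (9.01-fold), colec12 (4.48-fold), lrp1aa (3.43-fold) and DAB2 (3.71-fold), which held in 3, 2, 1 and 2 of 6 refits. The cytoglobin gene cygb1 had 44.5, 24.2 and 21.3 against 157, 169.5 and 305, a 6.95-fold rise held in 5 of 6 refits (0.0553 without uninjured pool 3). The epithelial junction gene cldnc rose 16-fold from 4.93 ± 5.33 to 79.1 ± 47.6 and held in 2 of 6 refits (0.138 with limma voom).

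Many of the lower genes outside the lists encode mitochondrial proteins. The adenine nucleotide carrier slc25a5 and the phosphate carrier slc25a3b, which supply the ATP synthase, stood at 73.6% and 68.4% of the uninjured level, the aspartate aminotransferase gene got2b at 65.8%, the transhydrogenase gene nnt at 58.9% and the cytochrome oxidase assembly gene coa3a at 52.9%. Mitochondrial ribosomal proteins, a group added after these values were seen, had 2 lower genes, mrpl11 (55.1%) and mrps34 (55.0%), among 67 tested. Of these 65 had a fitted decrease and 48 lay below without overlap, against 10.9% of all genes, with a median of -0.45. The cytosolic ribosomal proteins had a median of -0.04. The mitochondrial calls named here held in 0 to 3 of 6 refits, and scaling to the library total ended all but that of coa3a (adjusted p 0.047).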
